A study of Mus musculus with 2 samples.

Results

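The SoxF genes Sox7, Sox17 and Sox18 were examined in endothelial cells (EC) of the mouse embryo. They were taken by gene symbol from a table of 12684 genes, and all 3 had an entry. The rule uses the gene symbol, and measured values only for a repeated symbol, where the entry with the highest mean RPKM is kept. The members were chosen with earlier results of these data known. The EC were sorted from the aorta-gonad-mesonephros region (AGM), where blood stem cells emerge from hemogenic endothelium (HE), at E10.5. The sorting gate of both populations was CD31+CD117-CD45-. Wild-type littermates, with genotype WT in the labels, gave bulk EC. GFP-depleted EC came from Runx1+23GFP transgenic embryos, with genotype GFP+ in the labels, in which the Runx1 +23 enhancer drives GFP, and GFP-positive cells were gated out. The labels, the series design and the study's methods give this GFP-negative gate, whereas the study's results text describes the sorted cells of this comparison as GFP-positive HE. The labels were followed, and the conflict could not be settled from the sources used here, so the identity of the GFP-depleted library carries this doubt in every ratio. The labels give Runx1+23GFP as the strain of both groups, and the number of embryos behind each sort is not given in the sources used here. Each group had 1 library. There is hence no replicate check and no test of any difference, and genotype, gate and library cannot be told apart. The comparison describes 2 libraries.

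SoxF proteins are transcription factors that bind DNA through a high-mobility-group (HMG) box, shared by the whole Sox family, and activate genes through the C-terminal region. All 3 are made by EC of the embryo. Sox17 is needed for arterial identity and for fetal blood stem cells, and it also marks definitive endoderm. Sox18 acts in lymphatic development, where it switches on Prox1, and dominant Sox18 mutations underlie the ragged mouse. Sox7 is made in early blood and endothelial precursors and must be lowered for blood to form in mouse culture models. The 3 proteins can replace each other in part, so their levels are of interest side by side.

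The coding sequence of most of the HMG box is printed for Sox17 and Sox18 because it encodes the DNA-binding part that the members share, and because a short read from a shared stretch could be assigned to the wrong gene. Each stretch of 207 bases (69 codons) is from the GENCODE M1 transcripts, whose build is mm9, and runs 5' to 3'. Capitals mark the bases that differ between the genes shown.
Sox17: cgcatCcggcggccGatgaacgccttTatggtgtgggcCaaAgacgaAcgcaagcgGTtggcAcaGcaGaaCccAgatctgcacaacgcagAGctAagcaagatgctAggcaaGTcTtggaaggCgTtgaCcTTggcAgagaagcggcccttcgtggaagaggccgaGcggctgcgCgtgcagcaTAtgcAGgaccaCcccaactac
Sox18: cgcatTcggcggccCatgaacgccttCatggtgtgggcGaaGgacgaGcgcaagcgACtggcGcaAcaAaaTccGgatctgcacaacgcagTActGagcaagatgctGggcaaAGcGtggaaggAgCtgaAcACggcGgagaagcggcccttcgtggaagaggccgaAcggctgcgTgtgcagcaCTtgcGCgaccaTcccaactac

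In Sox17 (minus strand) this stretch lies in 2 coding exons, at chr1:4483181-4483289 and chr1:4482652-4482749. In Sox18 (minus strand) it lies at chr2:181405887-181405995 and chr2:181405604-181405701. In both genes an intron interrupts the box after the same base, the 109th of the stretch. The intron is 431 bases long in Sox17 and 185 in Sox18.

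Of the 207 bases, Sox17 and Sox18 shared 174 (84.1%), and 23 of the 33 differing positions were the last base of a codon. Of the 69 encoded residues, 62 were the same. The longest identical run between the whole transcripts of Sox17 and Sox18 was 29 bases. Reads were taken as 100 bases long, an assumption, since the length is not given in the sources used here. Among the lowest values checked, 6 of 15 in GFP-depleted EC and 2 of 5 in bulk EC matched 1 read of 100 bases. None of the 3199 windows of that length in the Sox7 transcript, the 3031 of Sox17 or the 1521 of Sox18 was found in a coding transcript of another gene, of 55443 transcripts searched. No other annotated gene overlapped the exons of the 3 genes (0% of exonic bases shared). A read of that length that matches the reference without mismatch thus belongs to 1 of these coding genes only.

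The values are RPKM, reads per kilobase of the gene model scaled to the depth of the library, a level per length. The depths recovered from the values were about 1.46e+07 reads in GFP-depleted EC against 1.1e+08 in bulk EC, a difference of 7.50 fold. Calls use the cut-offs of the study's methods, a change above 1.5 fold among genes of at least 0.3 RPKM, read here as a plain ratio with that level in at least 1 of the libraries. By this threshold 23.6% of the 12684 genes were called toward bulk EC and 15.3% toward GFP-depleted EC. Intervals beside folds are exact 95% intervals on the recovered read numbers. The read numbers rest on the assumed read length, and the intervals on each read being an independent count. Such an interval reflects counting error alone, not the spread between embryos, and reads amplified by PCR are not independent molecules.

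Sox7 and Sox18 were higher in bulk EC, and Sox17 was within the threshold. The summed SoxF level was 47.5 RPKM in GFP-depleted EC against 96.4 RPKM in bulk EC, a ratio of 2.03. Thus 2 of 3 members were called toward bulk EC and 0 toward GFP-depleted EC, beside a background of 23.6% and 15.3%. With 3 members, this share says little beyond the values themselves. At a threshold of 2 fold, Sox18 alone was called, toward bulk EC, where 13.3% of all genes were called in that direction and 6.61% in the other. In sorted populations such as these, fewer cells that express a gene and less RNA per cell cannot be told apart.

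Sox18 (ENSMUSG00000046470, mm9 chromosome 2, 181404542 to 181406345, minus strand, protein-coding) reached 15.5 RPKM in GFP-depleted EC against 41.8 RPKM in bulk EC. These levels rest on about 367 and 7430 reads. The level in bulk EC was 2.70-fold higher (2.43 to 3.0), and the whole counting interval lay past 2 fold. Relative to the trend of all genes with GC content, described further on, the fold was 1.56. The counting interval shifted by that trend, 1.43 to 1.77, holds 1.5. On the log2 scale, GFP-depleted over bulk EC with 0.3 added to both values, the ratio was -1.41. Of all genes, 5.71% had a ratio farther toward bulk EC, and 15.7% did relative to the GC trend. In GFP-depleted EC 65.5% of genes had a lower level than Sox18, and in bulk EC 80.5% did.

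Sox7 (ENSMUSG00000063060, mm9 chromosome 14, 64562511 to 64569569, plus strand, protein-coding) reached 24.8 RPKM in GFP-depleted EC against 46.4 RPKM in bulk EC, from about 1198 and 16799 reads. The level in bulk EC was 1.87-fold higher (1.76 to 1.98). This interval lay past 1.5 fold and under 2 fold. The log2 ratio was -0.89, and 13.3% of all genes lay farther toward bulk EC. As deposited, Sox7 had the highest level per length of the SoxF genes in both libraries.

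Sox17 (ENSMUSG00000025902, mm9 chromosome 1, 4481009 to 4487435, minus strand, protein-coding) reached 7.21 RPKM in GFP-depleted EC against 8.20 RPKM in bulk EC, from about 333 and 2841 reads. The level in bulk EC was 1.14-fold higher (1.01 to 1.28), so that a difference of 1.5 fold lay outside the counting interval. The log2 ratio was -0.18, and 40.5% of all genes lay farther toward bulk EC. Sox17 stood near the middle of the table in both libraries, with 49.98% and 50.84% of genes at a lower level. Its entry in the table reaches 941 bases farther upstream than the GENCODE M1 model used here for exon length, so its read numbers are the least certain of the 3.

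**Figure D1:**
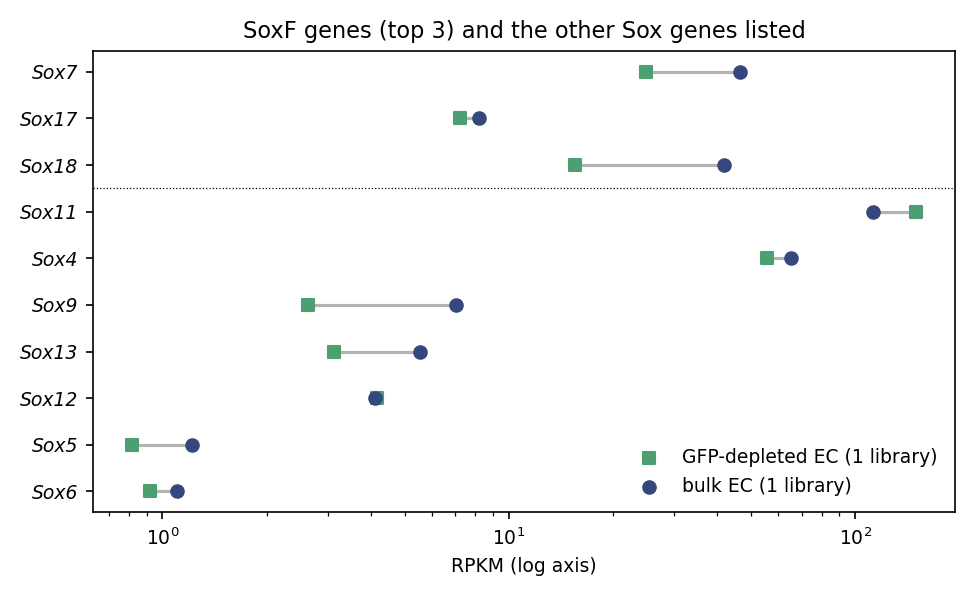
Levels in RPKM (log axis) of the 3 SoxF genes, above the dotted line, and of the 7 other Sox genes with an entry, in GFP-depleted EC (squares) and bulk EC (circles), with 1 library each. The gap between the libraries is wide for Sox18 and Sox7 and narrow for Sox17, at 7.21 and 8.20 RPKM.

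As deposited, the order of the levels was Sox7, Sox18, Sox17 in both libraries, but the distances changed. In GFP-depleted EC, Sox7 was 1.60 times (1.43 to 1.81) the level of Sox18, and in bulk EC it was 1.11 times (1.08 to 1.14). Sox18 was 2.15 times (1.84 to 2.50) the level of Sox17 in GFP-depleted EC and 5.09 times (4.88 to 5.32) in bulk EC. As a share of the summed SoxF level, Sox18 was 32.6% in GFP-depleted EC against 43.3% in bulk EC. Sox17 was 15.2% and 8.51%, and Sox7 52.2% and 48.1%, respectively. As deposited, Sox18 thus took a larger share in bulk EC and Sox17 a smaller one. The GC trend was then taken out of the bulk EC levels alone, with GFP-depleted EC left as deposited. The shares in bulk EC were then 31.5% for Sox18, 10.53% for Sox17 and 58.0% for Sox7. The larger share of Sox18 was thus lost and that of Sox17 was still smaller. Taking the trend out of the GFP-depleted EC levels instead was not done, and shares and order could depend on this choice.

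The folds of the members also differed from each other beyond counting error. The fold of Sox18 was 2.37 times that of Sox17 (2.03 to 2.77) and 1.44 times that of Sox7 (1.28 to 1.63). The fold of Sox7 was 1.64 times that of Sox17 (1.45 to 1.87). These intervals are approximate and on the log scale. Relative to the trend with GC content described next, the ratios of folds were 1.39, 0.869 and 1.60, respectively, so the order of Sox18 and Sox7 turned.

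The SoxF levels were next set beside genes that mark EC. Cdh5, the adhesion molecule of endothelial junctions, was at 81.5 RPKM in GFP-depleted EC against 72.9 RPKM in bulk EC. Pecam1, which encodes the CD31 of the gate, was at 153.9 and 154.5 RPKM. Both were within 1.5 fold. Sox18 reached 19.0% of the Cdh5 level in GFP-depleted EC against 57.3% in bulk EC. Sox7 reached 30.5% and 63.6%. Sox17 reached 8.85% and 11.3%. The picture depends on the marker. Beside Eng, a TGF-beta co-receptor and the marker farthest toward bulk EC, Sox18 went from 151.4% in GFP-depleted EC down to 66.3% in bulk EC. Beside Cldn5 it was at 18.6% and 21.2%. Of the 15 pan-endothelial markers, 14 had a smaller fold toward bulk EC than Sox18, 13 a smaller one than Sox7 and 7 a smaller one than Sox17. With GC correction these numbers were 14, 14 and 9.

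GC content separates Sox18 from its relatives. Over 10382 coding genes of at least 1 RPKM, the log2 ratio fell with exonic GC content (Spearman's rho -0.382 across genes, which are not independent replicates), so GC-rich genes tended to be higher in bulk EC. The exons of Sox18 hold 60.9% GC, and 1.75% of these coding genes (182 genes) are richer in GC. Sox7 (51.0%) and Sox17 (50.2%) lie close to the median of 49.5%. The cause of the trend was not tested, and the libraries also differ in depth.

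**Figure D2:**
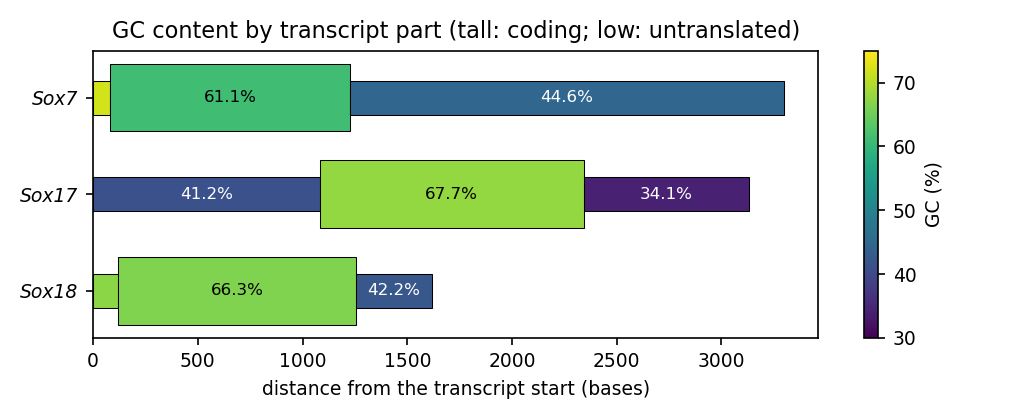
GC content of each part of the longest annotated transcript of Sox7, Sox17 and Sox18, drawn to scale in bases from the transcript start, with tall boxes for coding and low boxes for untranslated parts. All 3 coding parts are rich in GC, and the 3' untranslated part of Sox18, at 367 bases, is the shortest.

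The coding parts were alike in this respect, at 61.15% GC in Sox7, 67.7% in Sox17 and 66.3% in Sox18. The difference came from the untranslated parts. Sox7 carries a 3' untranslated part of 2073 bases at 44.6% GC. Sox17 carries one of 788 bases at 34.1% and a 5' part of 1082 bases at 41.2%. Sox18 carries only 367 bases at 42.2% and 119 bases at 67.2%, so that its transcript of 1620 bases is mostly coding sequence. Within the printed HMG-box stretch, GC content was 59.9% in Sox17 and 61.4% in Sox18.

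Relative to the GC trend, Sox7 and Sox18 remained past 1.5 fold toward bulk EC, but their order changed. The trend at the GC content of Sox18 was -0.77 on the log2 scale, which left a ratio of -0.65 for this gene, or 1.56 fold. The counting interval of the plain ratio, shifted by the trend, ran from 1.43 to 1.77 and held 1.5. It leaves out the error of the trend, and the fold of 1.56, unlike the interval, includes the pseudocount. At the GC content of Sox7 the trend was -0.05, and the ratio left was -0.85, or 1.80 fold (1.71 to 1.92, formed in the same way). For Sox17 the ratio left was -0.17, or 1.13 fold. Sox18 was then no longer the member farthest toward bulk EC. After this correction 17.6% of 12144 genes were past 1.5 fold toward bulk EC and 14.6% toward GFP-depleted EC.

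**Figure D3:**
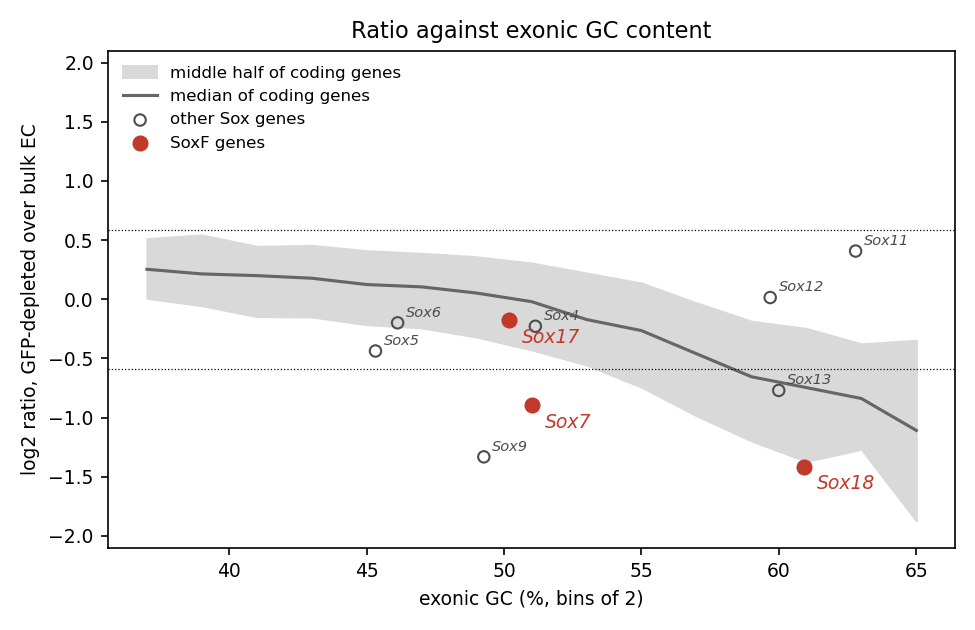
Log2 ratio (GFP-depleted over bulk EC, negative when higher in bulk EC) against exonic GC content in percent. The line is the median and the grey band the range between the quartiles of coding genes in bins of 2 percentage points, dotted lines mark 1.5 fold, and Sox18 (-1.41) lies just below the band while Sox7 (-0.89) lies well below it at a GC content of 51.0%.

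Of the other Sox genes, 7 of 17 searched had an entry, 2 were higher in bulk EC and 0 higher in the other library, and the median log2 ratio was -0.23 beside -0.02 over all genes. Sox9, a factor of cartilage, was at 2.62 RPKM in GFP-depleted EC against 7.06 RPKM in bulk EC (2.69 fold, 2.29 to 3.17). Sox13, of the SoxD group, was at 3.13 and 5.55 RPKM (1.77 fold, 1.53 to 2.05). The share of 2 in 7 (28.6%) is near the 23.6% over all genes. Sox13 was at -0.07 relative to the GC trend, so this call was lost, while Sox9 stayed at -1.35.

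Sox11 and Sox4, of the SoxC group, had the highest levels of the Sox genes in both libraries. Sox11 was at 149.3 RPKM in GFP-depleted EC against 112.5 RPKM in bulk EC, a 1.33-fold difference toward GFP-depleted EC. Sox4 was at 55.5 and 65.1 RPKM, but 54.6% of its exonic bases are shared with other genes and its value is uncertain. Sox12 was at 4.16 and 4.12 RPKM. Relative to the GC trend, Sox11 (1.30) and Sox12 (0.69) were past 1.5 fold toward GFP-depleted EC, in the direction opposite to Sox18 (GC content 62.8% and 59.7%, beside 60.9% in Sox18). Sox5 (0.82 and 1.21 RPKM) and Sox6 (0.92 and 1.10 RPKM) were near the lower end of the table. The remaining 10 Sox genes had no entry in the table, whose lowest mean of both values was 0.5 RPKM, and were not analysed here.

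Genes that SoxF factors are known to activate in EC, from work in mouse, fish and cultured cells, were compared next. Of 15 searched, 14 had an entry, 6 were higher in bulk EC and 1 higher in the other library (median log2 ratio -0.32, beside -0.02 over all genes). The share called toward bulk EC was 42.9%, beside 23.6% over all genes, and the list held genes called in both directions. Cldn5, the tight junction gene, was at 83.5 RPKM in GFP-depleted EC against 197.2 RPKM in bulk EC (2.36 fold, 2.25 to 2.48). Gja5, an arterial gap junction gene, was at 13.4 and 31.2 RPKM (2.34 fold, 2.20 to 2.48). Hey1, a Notch target and arterial factor, was at 11.0 and 24.0 RPKM (2.17 fold, 1.95 to 2.42).

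A smaller difference in the same direction was seen for Acvrl1, a receptor for BMP9 and BMP10, at 16.5 and 29.2 RPKM (1.77 fold). Robo4, an endothelial guidance receptor, was at 33.5 and 56.4 RPKM (1.68 fold). Notch4, the endothelial Notch receptor, was at 5.98 and 9.90 RPKM (1.66 fold). Together with the 3 above, these were the 6 genes called toward bulk EC.

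The other SoxF targets were not called toward bulk EC. Prox1, the lymphatic factor that Sox18 activates, was at 3.48 RPKM in GFP-depleted EC against 1.74 RPKM in bulk EC, 2.0-fold higher in GFP-depleted EC (1.71 to 2.33). Thus Sox18 and Prox1 were called in opposite directions. Dll4, the arterial Notch ligand, was at 10.2 and 13.5 RPKM (1.33 fold, 1.22 to 1.45). Notch1 was at 11.8 and 10.4 RPKM, and Efnb2, an arterial ephrin, at 41.0 and 37.2 RPKM. Kdr, the main VEGF receptor, was at 111.7 and 131.7 RPKM. Tek, the angiopoietin receptor, was at 53.9 and 50.7 RPKM, and Unc5b, a netrin receptor, at 23.3 and 17.8 RPKM. These genes and Cdh5 were within 1.5 fold. Vcam1 had no entry and was not analysed here.

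Relative to the GC trend, 2 of the 14 activated genes were past 1.5 fold toward bulk EC, Gja5 (-1.17) and Hey1 (-1.09). The calls of Cldn5 (-0.50), Acvrl1 (-0.44), Robo4 (-0.25) and Notch4 (-0.02) were lost. Prox1 (0.94) stayed past 1.5 fold toward GFP-depleted EC and Unc5b (1.0) joined it. The 2 calls in 14 toward bulk EC then stood beside 17.6% over all genes, and so were not above the background. The median was then -0.02, beside 0.02 over all genes with a GC value.

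Of the genes that Sox17 is known to repress in arterial EC, Runx1, the defining factor of HE, was at 0.62 RPKM in GFP-depleted EC against 0.66 RPKM in bulk EC. The fold was 1.07 (0.83 to 1.38), from about 71 reads in GFP-depleted EC. Its enhancer set the gate, but its own level showed no depletion detectable at this depth. Gata2, required for blood stem cells, was at 6.26 and 11.8 RPKM (1.88 fold, 1.68 to 2.12), and -0.35 relative to the GC trend, within 1.5 fold.

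**Figure D4:**
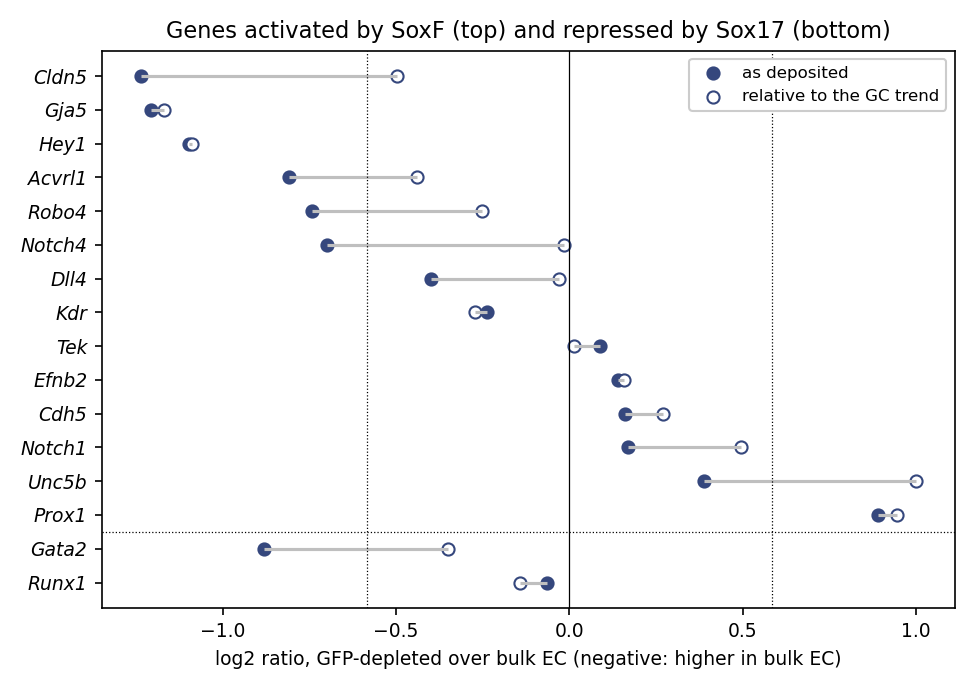
Log2 ratio (GFP-depleted over bulk EC) of 14 genes activated by SoxF factors, above the dotted line, and of the 2 genes repressed by Sox17, below it, as deposited (filled) and relative to the GC trend (open). Vertical dotted lines mark 1.5 fold; Gja5 and Hey1 keep their place near -1.1 to -1.2, whereas Cldn5 moves from -1.24 to -0.50.

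Factors that work with SoxF proteins went in both directions, mostly within 1.5 fold. Of 15 searched, 12 had an entry (median log2 ratio 0.13). Toward bulk EC 0 were called and toward GFP-depleted EC 1 was, beside 23.6% and 15.3% of all genes. The called gene was Ep300, a histone acetyltransferase, at 3.51 RPKM in GFP-depleted EC against 2.06 RPKM in bulk EC. Ets1, an ETS factor of EC, was at 406.8 and 274.2 RPKM and Ets2 at 39.4 and 58.7 RPKM, just inside 1.5 fold in opposite directions. With median or upper quartile scaling 2 members were called toward GFP-depleted EC. Mef2c, with which Sox18 forms a complex, was at 64.7 and 49.8 RPKM. VEGF pathway genes act upstream of SoxF activity. Of 9 with an entry, 3 were higher in bulk EC and 0 higher in the other library (median -0.34). The share of 33.3% toward bulk EC stands beside 23.6% over all genes, and rests on few genes. These were the ligand genes Vegfb (1.44 and 4.21 RPKM), Vegfc (10.3 and 22.8 RPKM) and Pgf (0.43 and 0.85 RPKM). Vegfb rests on about 34 reads and Pgf on about 10 in GFP-depleted EC, and the interval of Pgf holds 1.5. With a pseudocount of 1, 2 of the 9 were called toward bulk EC. Nrp1, a VEGF co-receptor, was at 85.2 and 123.7 RPKM (1.45 fold). After GC correction the calls toward bulk EC were Vegfb, Vegfc and Nrp1, and Flt4 was called toward GFP-depleted EC. These counts stand beside 17.6% and 14.6% of all genes. The call of Flt4 was lost when the GC trend was fitted with a lowess fraction of 0.1.

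SoxF factors are linked to the Notch pathway in arterial EC. Of its 14 genes with an entry, 7 were higher in bulk EC and 0 higher in the other library (median -0.45). The share of 50% toward bulk EC stands beside 23.6% over all genes. It includes Notch3 (0.61 and 0.94 RPKM, 1.54 fold), whose interval (1.20 to 1.97) holds 1.5. Hey1, Notch4, Dll4 and Notch1 are also among the activated genes above, so the shares of these lists are not independent. The Notch genes with the largest differences were the ligand genes Jag2 (0.50 and 2.36 RPKM) and Dll1 (0.69 and 2.40 RPKM, with 20.6% of exonic bases shared with other genes) and the target genes Hey1 and Hey2 (2.43 and 4.69 RPKM). Jag2 and Dll1 rest on about 29 and 42 reads in GFP-depleted EC. With the GC trend removed, 5 of 14 were past 1.5 fold toward bulk EC, beside 17.6% over all genes, and the median was -0.02.

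Markers of vessel types did not move as one with the SoxF genes. Arterial markers were higher in bulk EC for 4 of 9 genes and in GFP-depleted EC for 0 (median -0.54). Besides Gja5 and Hey1 these were Bmx (0.65 and 2.52 RPKM) and Cxcr4 (0.98 and 2.18 RPKM). Cxcr4 rests on about 26 reads in GFP-depleted EC, and its interval (1.49 to 3.43) holds 1.5. The arterial list, relative to the GC trend, was called in both directions, with 5 toward bulk EC, where Nrp1 joined (1.57 fold), and 2 toward GFP-depleted EC, Gja4 (1.53 fold) and Unc5b (2.0 fold). These counts stand beside 23.6% and 15.3% of all genes as deposited, and 17.6% and 14.6% relative to the trend. Of 4 venous markers 0 passed 1.5 fold in either direction (median 0.24), including Nr2f2 (29.9 and 26.0 RPKM), Ephb4 (22.2 and 18.1 RPKM), Aplnr (357.3 and 294.7 RPKM) and Nrp2 (16.9 and 18.7 RPKM). Ephb4 was called toward GFP-depleted EC relative to the GC trend (1.74 fold). Of 3 lymphatic markers with an entry, only Prox1 passed, toward GFP-depleted EC, while Lyve1 was at 3.17 and 3.91 RPKM and Flt4 at 31.7 and 26.3 RPKM. Flt4 joined Prox1 after GC correction (1.51 fold). Pan-endothelial markers were higher in bulk EC for 4 of 15 genes, namely Eng (6.15 fold), Cldn5, Robo4 and Egfl7 (1.54 fold, with 11.2% of exonic bases shared), and in GFP-depleted EC for 0 (median -0.24). The share of 26.7% is near the 23.6% over all genes. After GC correction Eng alone was called (4.31 fold), and Cldn5 was at 1.41, Robo4 at 1.19 and Egfl7 at 1.05 fold. All 15 were above 8 RPKM in both libraries. This level is near that of Sox17, at the middle of the table, so passing it says little about cell type.

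Most markers of other cells were called in the same direction as Sox7 and Sox18. All 9 blood markers with an entry, of 12 searched, were higher in bulk EC (median -2.09), beside 23.6% of all genes. Their summed level was 85.9 RPKM in GFP-depleted EC against 1188 RPKM in bulk EC. Most of this sum was the megakaryocyte chemokine gene Pf4 (70.3 and 1112 RPKM). Gp9, a platelet gene, was at 1.26 and 20.7 RPKM, and Gata1, a red cell and megakaryocyte factor, at 0.47 and 8.46 RPKM. The myeloid gene Lyz2 was listed at 0 in GFP-depleted EC against 1.25 RPKM in bulk EC. Ptprc, which encodes the CD45 of the gate, Klf1 and Csf1r had no entry. Mesenchyme and mural markers summed to 17.2 and 32.4 RPKM. Of 7, 5 were higher in bulk EC (71.4%, beside 23.6% of all genes). Among them were Col3a1 (0.34 and 2.796 RPKM), Acta2 (11.9 and 25.2 RPKM) and Twist1 (0.76 and 1.66 RPKM, the former from about 18 reads). The other 2, Rgs5 (1.37 and 0.78 RPKM) and Lum (1.80 and 0.21 RPKM), were higher in GFP-depleted EC. Toward bulk EC, the intervals of Twist1 (1.36 to 3.74), Pdgfra (1.48 to 2.89) and Col1a2 (1.23 to 1.85) hold 1.5. That of Rgs5 toward GFP-depleted EC (1.37 to 2.20) also does. With a pseudocount of 1, 3 of the 7 were called toward bulk EC and 1 toward GFP-depleted EC. With GC correction 3 of the 7 were called toward bulk EC and 1, Lum, toward GFP-depleted EC. Over all genes these shares were 17.6% and 14.6%.

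Because Sox17 also marks endoderm, markers of that tissue were examined. Of 17 searched, 3 had an entry, at a summed 5.31 RPKM in GFP-depleted EC against 17.1 RPKM in bulk EC. These were Gata6 (1.28 and 1.64 RPKM) and the keratin genes Krt8 (0.038 and 2.92 RPKM, with about 1 read in GFP-depleted EC) and Krt18 (3.99 and 12.5 RPKM), which other epithelia also express. The part of blood, mesenchymal and epithelial RNA in the SoxF differences was not tested.

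Neighbouring genes on the chromosome did not follow the members closely. The nearest listed gene to Sox18 was Tcea2, a transcription elongation factor gene that starts 8676 bases beyond it on the opposite strand, at 16.4 RPKM in GFP-depleted EC against 26.4 RPKM in bulk EC (1.61 fold). On its other side Prpf6, a splicing factor gene at a distance of 14176 bases, was at 31.5 and 39.0 RPKM. For Sox7 the neighbours were 2610028A01Rik (33.9 and 28.5 RPKM) and Msra, a methionine sulfoxide reductase gene (17.7 and 10.6 RPKM), the latter 1.67-fold higher in GFP-depleted EC. For Sox17 the only listed neighbour was Mrpl15, a mitochondrial ribosomal protein gene (143.3 and 104.6 RPKM). Hence Tcea2 alone was called in the direction of its SoxF neighbour, and relative to the GC trend it was within 1.5 fold (-0.46).

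The genes most like each member were taken as the 5 coding genes nearest in the plane of the log2 levels of the 2 libraries. With only 2 libraries, likeness means a like level and a like ratio. For Sox18 they were Klf13 (15.0 and 40.4 RPKM, distance 0.07), Wdr45l, Gnb2, Ccm2 and 1110007C09Rik. For Sox7 they were Drap1 (24.4 and 46.6 RPKM, distance 0.02), Hsph1, Pdlim7, Klhdc2 and Tra2a. For Sox17 they were Mtrr (7.31 and 8.25 RPKM, distance 0.02), Usp48, Rab24, Setdb1 and 2310044G17Rik. Among these 15, Ccm2, a gene of the endothelial cerebral cavernous malformation complex, is known for a role in vessels, and it was at 16.8 RPKM in GFP-depleted EC against 41.7 RPKM in bulk EC.

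The SoxF differences were then computed under other settings. Sox7 was between -0.77 and -0.90 on the log2 scale, Sox17 between -0.06 and -0.19, and Sox18 between -0.65 and -1.43. The direction of all 3 members held in each setting run, and Sox17 was within 1.5 fold in each. Without a GC trend Sox18 was between -1.29 and -1.43, and only a threshold of 2 fold ended the call of Sox7.

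**Figure D5:**
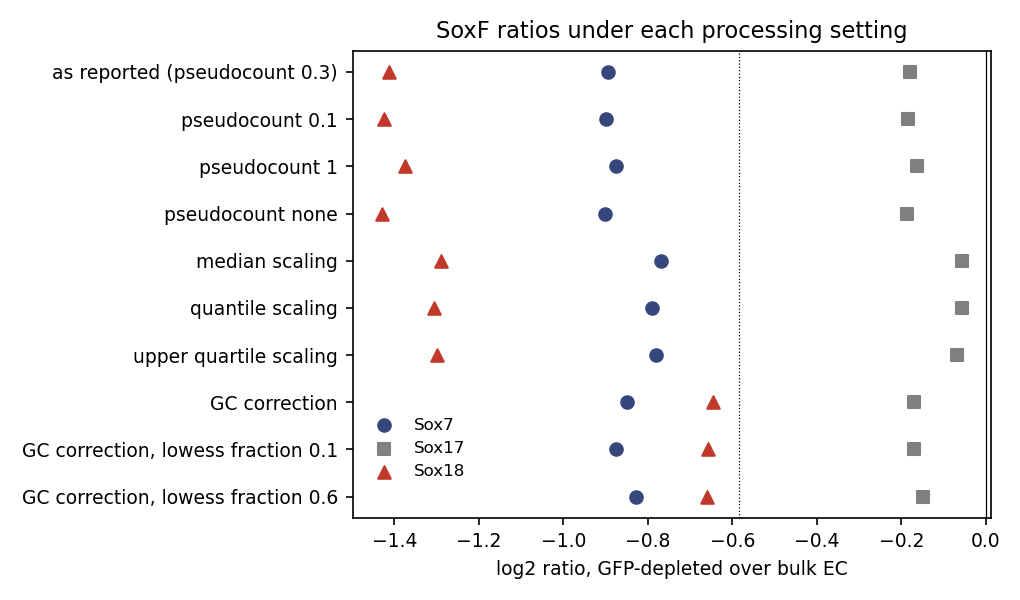
Log2 ratio (GFP-depleted over bulk EC) of Sox7, Sox17 and Sox18 as reported and under each other pseudocount, scaling and GC setting. The dotted line marks 1.5 fold toward bulk EC; Sox18 moves from -1.41 to -0.65 with GC correction and Sox7 stays between -0.77 and -0.90.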

How the data were processed

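RNA of 2 sorted populations was sequenced, with 1 library each. Per the labels and the study's methods, SMART amplification of cDNA preceded sequencing in 1 lane, with mm9 as the genome. BWA 0.5.7 and Cuffdiff are named in the submitters' processing notes. For the annotation, counting and strand use, the sources used here give nothing. The authors deposited 1 table of RPKM values (12899 entries), and a column of their own ratios that was not used. Repeated symbols were reduced to their highest entry by mean RPKM (12684 genes). The members and gene lists were chosen with earlier results of these data known.

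Ratios were computed in Python 3.11.15 with a pseudocount of 0.3 RPKM. Exon length and GC content came from GENCODE M1 (mm9) by Ensembl identifier, for 12144 genes (95.7%). The GC trend was a lowess (statsmodels 0.14.6, fraction 0.3) over coding genes of at least 1 RPKM. Depth was recovered from features shorter than 150 bases, whose values were read as multiples of 1 covered base. Within 0.15 of a whole multiple lay 95.7% of 369 values in GFP-depleted EC and 93.6% of 360 in bulk EC. For a step fixed beforehand, chance gives 30%. The step was chosen to raise this share, so the chance level here lies above 30%. Counting intervals were Clopper-Pearson (scipy 1.17.1). The steps were tested on simulated data with independent reads, a straight GC trend and the same exon lengths. The simulation leaves out PCR duplication and errors in the gene models. Sequences came from the GENCODE M1 transcripts with biopython 1.88, and 1 further sequence is not reported here. The promoters of Sox7, Sox17 and Sox18 had no entry in the RefSeq table. Named genes were all Sox genes with an entry, all genes of the lists activated and repressed by SoxF, the 4 members with the largest absolute log2 ratio in each other list, the 5 nearest coding genes and the chromosome neighbours. Further members of a list that are named were chosen after their values were seen.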

Additional observations from a re-analysis of the deposited data

How the results depend on the processing

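No paired analysis was possible because there is only 1 library a group, and for the same reason no library could be left out. The ratios of Sox7 and Sox18, and the list medians past 1.5 fold, kept their sign under the other settings. Most of the 540 values computed there are counts of calls, which have no sign. The 2-fold threshold leaves the ratios themselves unchanged by construction. Scaling both libraries to the same median moved the median of all genes from -0.02 to 0.10 and Sox7 to -0.77. Quantile scaling gave -0.79 and upper quartile scaling -0.78 for Sox7. Median scaling also turned the 2997 calls toward bulk EC and 1939 toward GFP-depleted EC into 2555 and 2576, quantile scaling into 2557 and 2476, and upper quartile scaling into 2595 and 2520. GC correction moved Sox18 to -0.65 and left 2 activated SoxF targets higher in bulk EC in place of 6. Trends with a lowess fraction of 0.1 or 0.6, chosen after seeing the data, gave -0.66 and -0.66 for Sox18 and again 2 and 2 targets. A threshold of 2 fold, which passes fewer genes by construction, left 1 SoxF member, 3 targets, and 1683 genes toward bulk EC against 839 toward the other library. Of the other list values 412 stayed close to those reported and 44 moved, 25 down and 19 up. Close meant counts within 1.5 fold of each other, or medians that shifted by less than 0.585 on the log2 scale. This rule is wide. With GC correction the Notch median went from -0.45 to -0.02 and that of the activated targets from -0.32 to -0.02, and both count as close. The causes of the moves were not tested. GFP-depleted EC, the shallower library, limits the precision of Sox17 and Sox18 and of any gene under 1 RPKM.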
